A study of Arabidopsis thaliana with 24 samples.

Results

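The 36 genes described here encode nuclear subunits of the thylakoid photosystems and the electron transport chain, and they were taken by locus identifier from the 33610 identifiers of a count table of Arabidopsis thaliana leaf RNA. They comprised 12 genes of photosystem I, 13 of photosystem II, 2 of the cytochrome b6f complex, 6 of the soluble carriers plastocyanin, ferredoxin and ferredoxin-NADP reductase, and 3 of the chloroplast ATP synthase. Of the 36 genes, 18 formed 9 paralog pairs. All 36 passed the filter on low counts, and the rule that picks them, membership of a complex, uses no measured value.

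RNA came from the youngest fully developed leaf of the ecotypes Rodasen-47 from Sweden (SW, sub-line 29) and Castelnuovo-12 from Italy (IT, sub-line 24), with 3 libraries in each of 8 groups. In high light, cool (HLC) plants received 1000 µmol photons per square metre and second at leaf temperatures of 14 °C by day and 12.5 °C by night. In high light, warm (HLW) the light was the same and the leaves were at 25 °C and 20 °C. In low light, cool (LLC) plants received 100 µmol at 16 °C and 12.5 °C, and in low light, warm (LLW) 100 µmol at 25 °C and 20 °C. Days had 9 h of light, and leaf discs were taken as the dark period of 15 h ended, so all levels are those of darkened leaves. Ribosomal RNA was depleted, and replicates are called biological in the labels. Nothing in the labels ties each to its own plant or growth run. A p-value therefore sets a difference between group means only against the spread of deposited libraries within their groups. That spread was estimated jointly over all 8 groups, so a library can move calls in comparisons that its group is not part of.

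Photosystem II takes electrons from water and passes them through the cytochrome b6f complex and plastocyanin to photosystem I, which reduces ferredoxin, and ferredoxin-NADP reductase then makes NADPH. The protons moved along the way drive the ATP synthase. Most reaction-centre proteins are encoded in the plastid, while the subunits that dock electron carriers and antennas, shield the oxygen-evolving centre or complete the small complexes are mostly encoded in the nucleus, and in Arabidopsis several of them by a pair of genes.

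Total counts ran from 10967425 to 17467653 per library, of which plastid transcripts took 54.8% to 68.0%. The 36 genes took 1.60% to 5.58% of the nuclear counts. Levels of 5 genes did not follow the ecotype labels. These genes were chosen because earlier results of these data gave them as on or off by group. QQS, a starch-related gene, stood at 3.60 to 20.2 CPM (counts scaled to a library of 1000000) in IT_HLC, SW_LLC, IT_LLC and SW_LLW and at no more than 0.145 CPM in the other groups, and ADR1-L3 followed it. CSA1, DAR4 and THI2.2 were on in SW_HLC, SW_HLW, IT_HLW and IT_LLW. IT_HLC replicate 3 had both sets, with QQS at 3.60 CPM and CSA1 at 5.05 CPM. Whether samples were exchanged between labels was not tested, so all SW, IT and SW minus IT values below are those of the labels and may not be those of the ecotypes. Within each label 1 of the HLC and LLW groups was QQS-positive and the other CSA1-positive. Library codes also fell into a lettered series, with all HLC and LLW libraries, and a numbered series, with all HLW and LLC libraries, so a series difference and an interaction of light with temperature cannot be told apart.

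Levels are given as CPM after TMM scaling, and are not corrected for gene length unless stated. The 36 genes varied more between replicates than most genes, with a median biological coefficient of variation of 0.250 against 0.165 over the 17709 genes tested. Their CPM values also moved together from library to library, which is given with no share over all genes. In IT_HLC replicate 2 all 36 stood below the mean of the other IT_HLC libraries, at a median ratio of 0.394, and their summed level was 4869 CPM against 11295 and 11183 CPM in the others. Library scaling enters these values, and this library had the highest TMM factor, 1.41, against 1.18 and 0.896 in the others of its group. As a share of nuclear counts the 36 genes took 1.60% there, against 3.38% and 2.64% in the others. In SW_LLC replicate 3 all 36 stood below the mean of the others of the group, at a median ratio of 0.605, and in SW_LLC replicate 2 all 36 stood above, at 1.54. In IT_HLW replicate 1, the shallowest library, 35 of 36 stood below, at 0.718.

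Summed over all 36 genes, the level was highest in SW_HLW at 21575 ± 1608 CPM and IT_LLW at 20494 ± 1274 CPM (SD, n = 3 each). It was 16318 ± 2885 CPM in IT_HLW, 15067 ± 1032 CPM in SW_HLC, 13822 ± 910 CPM in IT_LLC, 13766 ± 4114 CPM in SW_LLC and 12248 ± 265 CPM in SW_LLW. IT_HLC was lowest at 9116 ± 3678 CPM, and its best library stood below every other group's lowest library except that of SW_LLC. IT_HLC gave the lowest group mean for 25 of the 36 genes, and SW_HLW gave the highest for 18, IT_LLW for 9 and SW_HLC for 8. By complex, the photosystem I sum was 7631 ± 593 CPM in SW_HLW and 2358 ± 1165 CPM in IT_HLC, and the photosystem II sum 10956 ± 509 CPM and 4611 ± 1685 CPM in the same groups. The soluble carriers, ATP synthase and cytochrome b6f genes had their highest sums in SW_HLC, at 2153 ± 349 CPM, 973 ± 123 CPM and 575 ± 65.1 CPM (SD, n = 3 each). Per kilobase of exon, PSBR, PSBO1 and PSBP1 were the most abundant and PSBP2, PSB28 and FD1 the least.

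**Figure D1:**
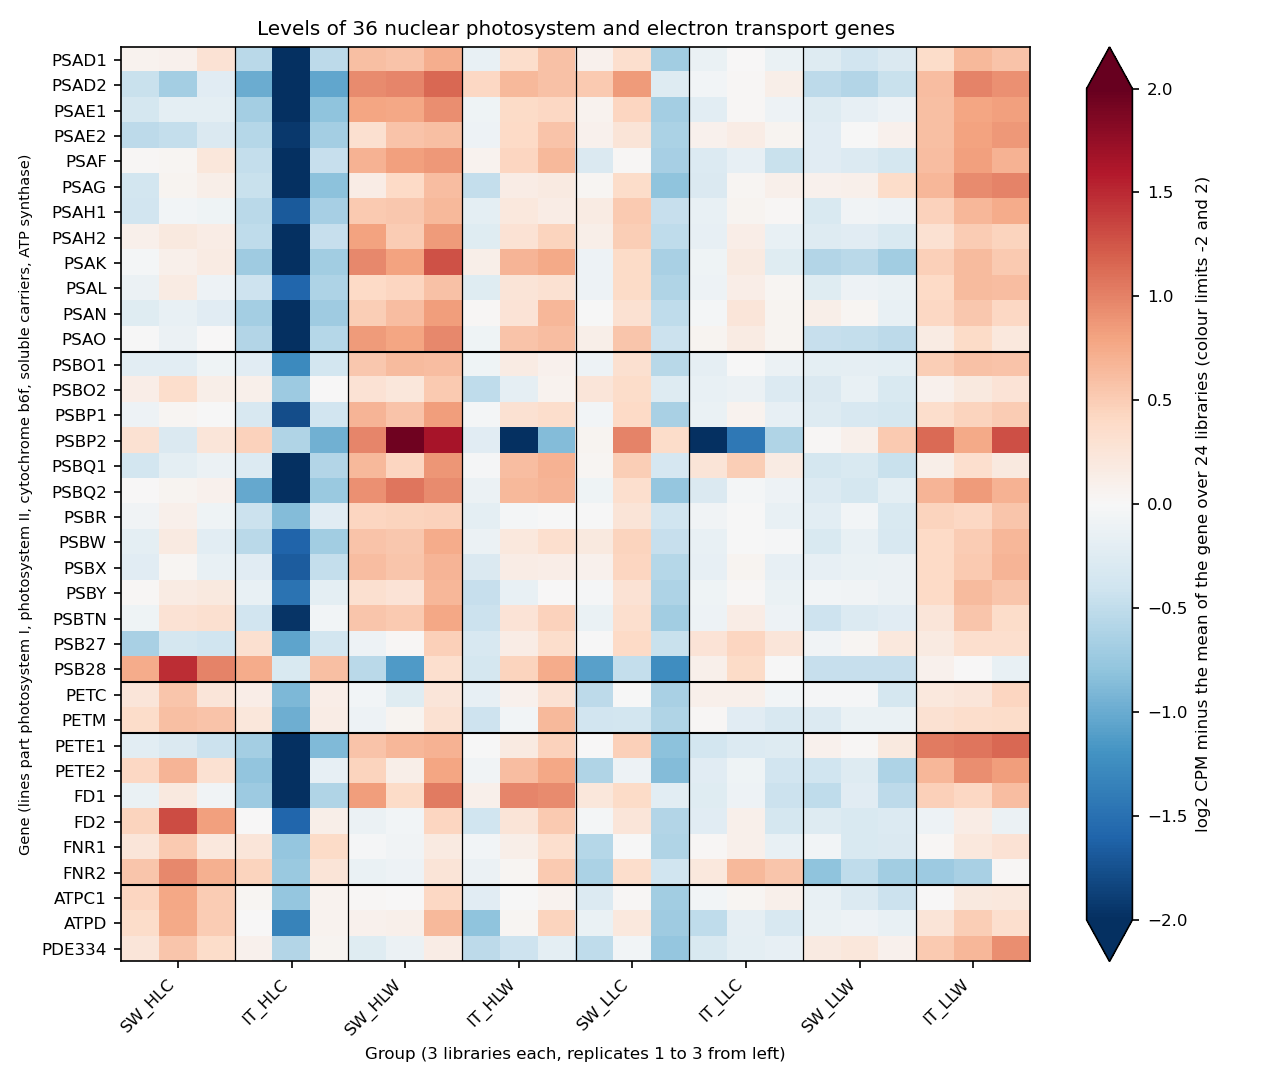
Level of each of the 36 genes (rows, lines part the complexes) in each of the 24 libraries (columns, replicates 1 to 3 from left within each group), as log2 CPM minus the gene's mean over all libraries, with colours limited at -2 and 2. Most rows of photosystem I and photosystem II are darkest blue in IT_HLC replicate 2 and red in SW_HLW and IT_LLW, while PSB28, FD2 and FNR2 are red in SW_HLC.

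**Figure D2:**
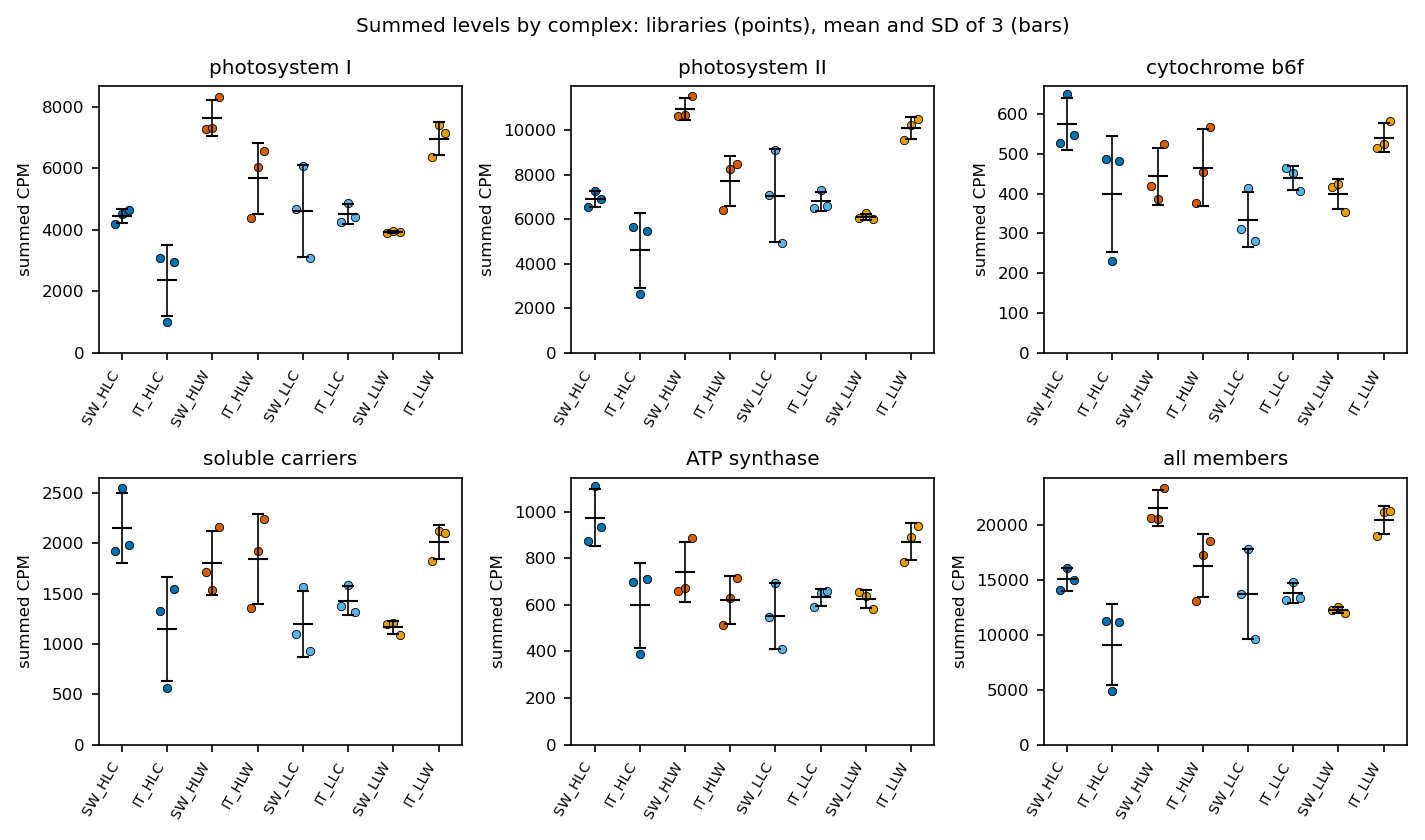
Summed CPM of each complex and of all 36 genes in each library (points), with the mean and SD of the 3 libraries of each group (bars). Photosystem I and photosystem II sums are highest in SW_HLW and IT_LLW, and the ATP synthase and cytochrome b6f sums are highest in SW_HLC.

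Leaves in high light and cool temperature were compared with leaves in low light and warmth, first as the mean over both labels, which has 1 QQS-positive and 1 CSA1-positive group on either side. In this comparison 16 of the 36 genes fell and 2 rose (edgeR's quasi-likelihood test, adjusted p below 0.05), against 27.3% of all genes tested lower and 28.5% higher. The median change of the 36 was -0.47 on the log2 scale, against 0.01 over all genes tested. Photosystem I held 8 of the genes that fell and photosystem II 6, and the 2 cytochrome b6f and 3 ATP synthase genes did not pass the test. Without IT_HLC replicate 3, the library with both QQS and CSA1, 23 genes fell and 2 rose in this comparison, 26 fell in IT, 7 rose in SW, and 32 differed between labels.

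Of the 12 photosystem I genes 8 fell, and the median of all 12 was -0.68. PSAD2, which encodes 1 of the stromal subunits that dock ferredoxin, had 193, 165 and 225 CPM in SW_HLC and 132, 23.5 and 128 CPM in IT_HLC, against 183, 176 and 194 CPM in SW_LLW and 406, 525 and 498 CPM in IT_LLW. The SW_HLC libraries lay at the level of SW_LLW, and the IT_LLW libraries were the highest by far. Its log2 fold change was -1.13 ± 0.27 (SE; adjusted p = 0.00141), and changes below are given the same way. PSAE1 and PSAE2, the stromal subunits beside it, changed by -0.95 ± 0.20 and -1.04 ± 0.19 (adjusted p = 0.000426 and 7.91e-05). PSAE2 had 79.6, 82.4 and 93.8 CPM in SW_HLC and 77.0, 30.1 and 71.2 CPM in IT_HLC, against 97.4, 114 and 121 CPM in SW_LLW and 173, 199 and 208 CPM in IT_LLW, so every HLC library lay below every LLW library.

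PSAE1 had 405, 448 and 449 CPM in SW_HLC and 322, 113 and 295 CPM in IT_HLC, against 431, 461 and 479 CPM in SW_LLW and 784, 894 and 912 CPM in IT_LLW. Its SW_HLC libraries overlapped those of SW_LLW, and IT_HLC replicate 2 was again far below its group.

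On the lumenal side, PSAF and PSAN, which help to dock plastocyanin, changed by -0.60 ± 0.21 and -0.87 ± 0.20 (adjusted p = 0.0217 and 0.00115). PSAN had 370.4, 399 and 374 CPM in SW_HLC and 274, 87.3 and 269.6 CPM in IT_HLC, against 475, 455 and 399 CPM in SW_LLW and 587, 642 and 586 CPM in IT_LLW, with no overlap. PSAG, a subunit at the antenna side, changed by -1.05 ± 0.23, and PSAH1 and PSAL, on the side where mobile light-harvesting complex docks, by -0.76 ± 0.17 and -0.59 ± 0.17 (adjusted p = 0.000662, 0.000652 and 0.00635). PSAG had 226, 305 and 316 CPM in SW_HLC and 215, 62.9 and 166 CPM in IT_HLC, against 311, 315 and 375 CPM in SW_LLW and 464, 565 and 580.2 CPM in IT_LLW, and its IT_LLW libraries stood above all others of these 4 groups. The other 4, PSAD1, PSAH2, PSAK and PSAO, ranged from -0.49 to -0.38 and did not pass the test.

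Of the 13 photosystem II genes 6 fell and 1 rose, and the median was -0.45. The oxygen-evolving proteins shield the manganese cluster on the lumenal side, and among them PSBO1 changed by -0.54 ± 0.15 and PSBQ2 by -0.87 ± 0.25 (adjusted p = 0.00464 and 0.00662). PSBQ2 had 619, 636 and 649 CPM in SW_HLC and 303, 75.7 and 366 CPM in IT_HLC, against 509, 482 and 536 CPM in SW_LLW and 983, 1109 and 997 CPM in IT_LLW. SW_HLC stood above SW_LLW here, and IT_HLC below every library of the other 3 groups. PSBO1, the more abundant manganese-stabilising protein gene, had 1673, 1667 and 1816 CPM in SW_HLC and 1658, 805 and 1507 CPM in IT_HLC, against 1690, 1718 and 1684 CPM in SW_LLW and 2709, 2896 and 2888 CPM in IT_LLW. PSBR, which is needed for stable binding of the oxygen-evolving proteins, and the small membrane subunits PSBW and PSBX changed by -0.39 ± 0.12, -0.60 ± 0.16 and -0.59 ± 0.19 (adjusted p = 0.00732, 0.00387 and 0.0103).

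PSBW had 634, 819.8 and 625 CPM in SW_HLC and 497, 239 and 445 CPM in IT_HLC, against 582, 649 and 579.8 CPM in SW_LLW and 947, 1023 and 1145 CPM in IT_LLW. As for PSBQ2, the IT_LLW libraries were highest and the IT_HLC libraries lowest of these 4 groups.

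PSB27 and PSB28 encode proteins that bind photosystem II while it is assembled or repaired, and they moved in opposite directions. PSB28 had 25.9, 42.7 and 30.7 CPM in SW_HLC and 25.8, 12.5 and 23.3 CPM in IT_HLC, against 11.2, 11.1 and 11.2 CPM in SW_LLW and 16.4, 15.5 and 14.0 CPM in IT_LLW. Only IT_HLC replicate 2 among the HLC libraries lay within the LLW range, and PSB28 rose by 0.99 ± 0.23 (SE; adjusted p = 0.00102). PSB27 changed by -0.54 ± 0.18 (adjusted p = 0.017), with SW_HLC the lowest group. PSBO2, PSBP1, PSBP2, PSBQ1, PSBY and PSBTN ranged from -0.71 to 0.05 and did not pass the test. PSBP2 was the rarest of the 36, with 1 to 57 counts per library.

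The soluble carriers split. PETE1 (AT1G76100), the minor plastocyanin gene, had 47.4, 44.6 and 40.8 CPM in SW_HLC and 34.2, 10.5 and 29.8 CPM in IT_HLC, against 58.0, 55.6 and 62.6 CPM in SW_LLW and 112, 114 and 121 CPM in IT_LLW. No HLC library reached the LLW range, and the change of -1.32 ± 0.21 was the largest fall among the 36 (adjusted p = 2.55e-05). All 6 HLC libraries lay below all 6 LLW libraries in 3 of 36 genes, PETE1, PSAE2 and PSAN, against 12.7% of all genes tested. No member lay wholly above, against 12.6%. FNR2 (AT1G20020), a ferredoxin-NADP reductase, had 265, 350.1 and 295 CPM in SW_HLC and 247, 108 and 216 CPM in IT_HLC, against 104, 126 and 111 CPM in SW_LLW and 109, 115 and 183 CPM in IT_LLW. It rose by 0.95 ± 0.20 (adjusted p = 0.000501), with IT_HLC replicate 2 within the LLW range. FD1, a minor leaf ferredoxin, changed by -0.59 ± 0.24 (adjusted p = 0.0461), but its adjusted p ran from 0.0169 to 0.0919 over 29 alternative settings and missed the threshold in 20. The other 17 genes called in this comparison kept their call in all 29, and 5 rather than 2 genes rose without IT_HLC replicate 2.

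The remaining carriers, PETE2, FD2 and FNR1, did not pass the test, at -0.36 ± 0.23, 0.45 ± 0.23 and 0.20 ± 0.16 (adjusted p = 0.188, 0.112 and 0.303). PETC, the Rieske iron-sulfur protein of cytochrome b6f, and PETM, a small subunit of it, stood at 0.02 ± 0.16 and 0.12 ± 0.18 (adjusted p = 0.92 and 0.568). Of the ATP synthase genes, ATPC1 (gamma subunit) stood at 0.27 ± 0.14, ATPD (delta) at 0.01 ± 0.22 and PDE334 (the b' subunit of the stalk) at -0.30 ± 0.13 (adjusted p = 0.112, 0.965 and 0.057).

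The shift differed between labels. In IT 26 of 36 genes fell, against 26% of all genes tested lower, and the median was -1.21. Of all genes 28.6% were higher in IT, and no member rose there by edgeR, by DESeq2 or at an unadjusted p below 0.05. All 12 photosystem I genes fell there, as did 10 of 13 photosystem II genes, PETE1, PETE2, FD1 and PDE334. The smallest adjusted p in IT belonged to PETE1 at -2.23 ± 0.31 (5.45e-06), and PSAD2 and PSBQ2 stood at -2.33 ± 0.40 and -2.05 ± 0.37 (adjusted p = 5.74e-05 and 0.000108). All IT_HLC libraries lay below all IT_LLW libraries in 29 of 36 genes, against 28.3% of all genes tested. In SW 6 of 36 rose, against 24.8% of all genes tested higher, and the median was 0.30. All SW_HLC libraries lay above all SW_LLW libraries in 21 of 36 genes, against 30.7% of all genes tested. They lay below in 4, against 32%. Of all genes 25.5% were lower in SW, and no member fell there by edgeR, by DESeq2 or at an unadjusted p below 0.05.

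The genes that rose in SW were PSB28 at 1.56 ± 0.33, FNR2 at 1.41 ± 0.29, FD2, the major leaf ferredoxin, at 1.18 ± 0.33, PETE2, the major plastocyanin, at 0.90 ± 0.32, ATPC1 at 0.86 ± 0.20 and PETM at 0.70 ± 0.25 (adjusted p = 0.000532, 0.000431, 0.00612, 0.0247, 0.00153 and 0.0247). FD2 had 359, 651 and 465 CPM in SW_HLC against 219, 213 and 218 CPM in SW_LLW, and ATPC1 had 491, 622 and 516 CPM in SW_HLC against 327, 300.0 and 269.8 CPM in SW_LLW, with no overlap in either. Of all genes tested, 30.7% likewise lay wholly above in SW_HLC. PETM had 125, 146 and 144 CPM in SW_HLC against 80, 87.4 and 87.8 CPM in SW_LLW. In IT FD2 stood at -0.29 ± 0.33 and ATPC1 at -0.32 ± 0.20, which did not pass the test (adjusted p = 0.477 and 0.193). No photosystem I gene passed the test in SW, where the 12 ranged from -0.38 to 0.68. All SW_HLC libraries lay above all SW_LLW libraries for PSAD1, PSAF, PSAH2, PSAK and PSAO, and below them for PSAE2 and PSAN. Without IT_HLC replicate 2, 12 genes rose and 1 fell in SW, and 24 fell and 1 rose in IT. Also, 1 rose in IT without IT_LLW replicate 3, and 1 fell in SW without IT_HLC replicate 1.

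The change in SW minus that in IT was positive for all 36 genes and passed the test for 31, against 18.7% of all genes tested positive and 18.4% negative, and no member was negative by edgeR, by DESeq2 or at an unadjusted p below 0.05. The median was 1.38 over the 36 genes and -0.03 over all genes tested. Other lists had positive medians as well. The median was 0.77 for 17 plastid-encoded subunits of the same complexes, of which 9 were positive and 0 negative past the threshold by edgeR, and 0.79 for 27 assembly factors, of which 15 were positive and 2 negative. So did the tissue markers, with medians of 1.89 for phloem (3 of 3 positive), 1.11 for epidermis (3 of 4), 0.77 for guard cells (1 of 5), 1.06 for xylem (0 of 5) and 1.03 for mesophyll (0 of 2), and their part in the members' difference was not tested. For PETE2 it was 2.51 ± 0.46, for PSAD2 2.41 ± 0.54 and for PSBQ2 2.37 ± 0.51 (adjusted p = 0.000244, 0.00171 and 0.00119). PETE2 had 809.8, 973 and 750.2 CPM in SW_HLC against 460.2, 504 and 394 CPM in SW_LLW, and 352, 149.8 and 543 CPM in IT_HLC against 956, 1152 and 1081 CPM in IT_LLW. HLC was thus above LLW in every SW library and below it in every IT library. PSB27, PSB28, PSBP2, FNR1 and FNR2 were the 5 that missed the threshold. Within each label the regime and the QQS-positive or CSA1-positive state change together, so their parts in this difference cannot be told apart.

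**Figure D3:**
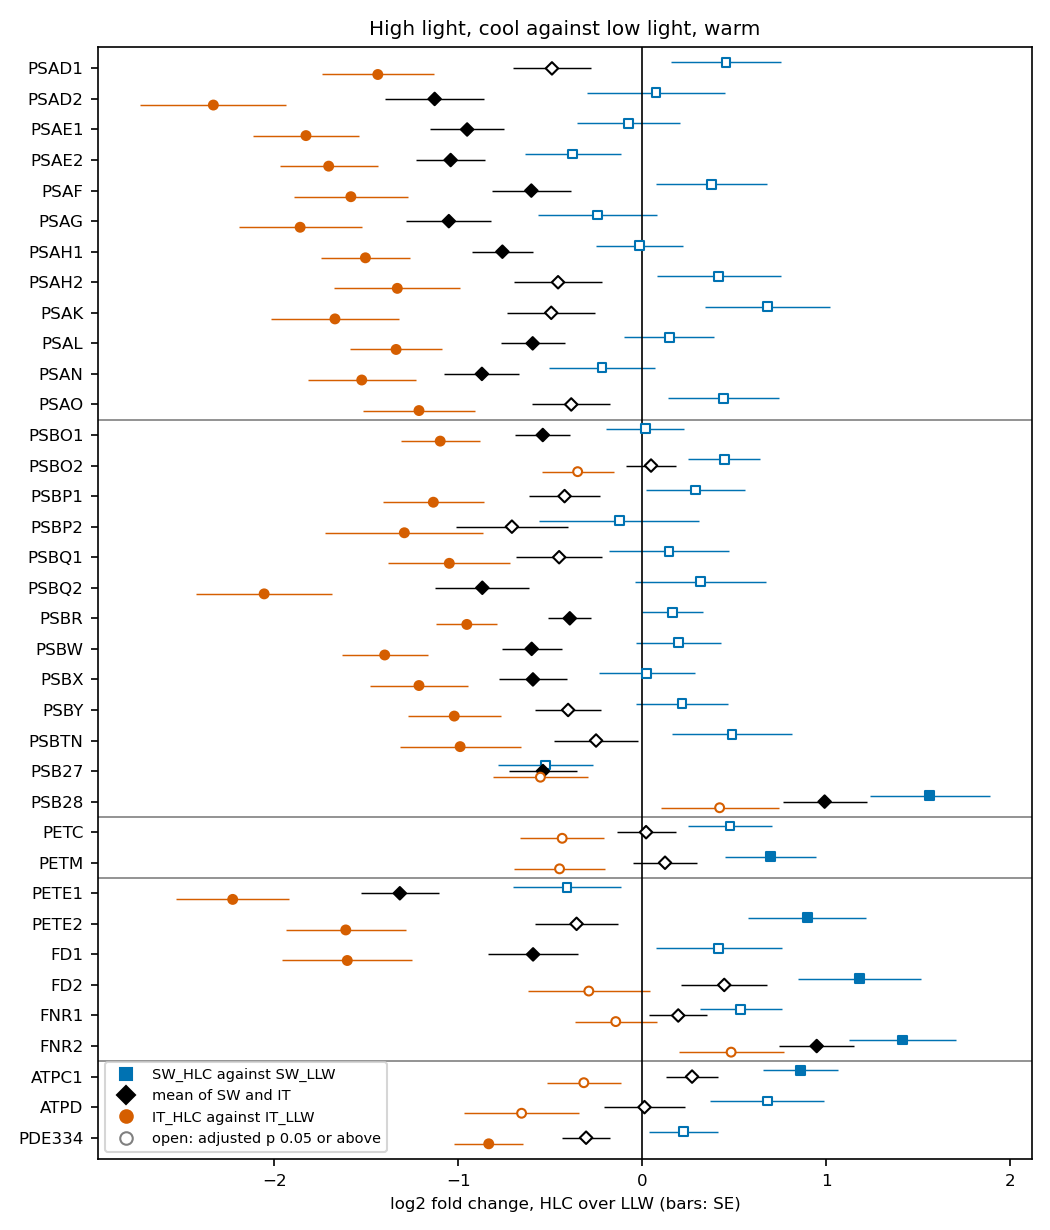
Log2 fold change of HLC over LLW for each of the 36 genes within SW (squares), as the mean of labels (diamonds) and within IT (circles), with bars for the SE and open symbols at an adjusted p of 0.05 or above. All photosystem I genes sit left of 0 in IT and between -0.38 and 0.68 in SW, and PSB28 and FNR2 lie right of 0 in all 3 comparisons.

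HLC and LLW were also compared across labels, within the QQS-positive groups as IT_HLC against SW_LLW and within the CSA1-positive groups as SW_HLC against IT_LLW. These pairings share no library, although they share 1 estimate of spread. IT_HLC replicate 3 had both QQS and CSA1 on, so the first pairing does not hold that state wholly constant. In IT_HLC against SW_LLW 10 of 36 genes fell and 2 rose, against 20.8% and 20.5% of all genes tested. In SW_HLC against IT_LLW 11 fell and 3 rose, against 22.3% and 24%. The medians were -0.46 and -0.46, and the sign was the same in 33 of 36 genes, or 91.7%, against 78.1% of all genes tested.

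PSAD2, PSAE1, PSAE2, PSAG, PSAH1, PSBW and PETE1 fell in both pairings, which makes 7, or 70% of the members that fell in the first pairing and 63.6% of those in the second. The same shares over all genes tested were 68.8% and 64.1%, so the overlap was near the background. In both pairings 19.4% of the 36 fell, against 14.3% of all genes tested. PSB28 and FNR2 rose in both, which is 5.56% of the 36 against 14.9% of all genes tested. Over 29 alternatives PSAD2 lost its call in 24 in the first pairing, PSBW in 6 in the first and 17 in the second, PSAH1 in 3 in the first and PSAG in 3 in the second. PSB28 and FNR2 lost theirs in 5 and 6 in the first pairing, and PSAE1, PSAE2 and PETE1 lost none in either. PETE1 changed by -1.24 ± 0.30 in IT_HLC against SW_LLW and by -1.39 ± 0.30 in SW_HLC against IT_LLW (adjusted p = 0.00256 and 0.000782). PSB28 changed by 0.87 ± 0.32 and 1.12 ± 0.32 (adjusted p = 0.0378 and 0.00777), and FNR2 by 0.74 ± 0.29 and 1.16 ± 0.29 (adjusted p = 0.044 and 0.00261).

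PETE2, whose changes within the labels were opposite, stood at -0.38 ± 0.32 and -0.33 ± 0.32 across them and passed neither test (adjusted p = 0.362 and 0.418). Counts in these pairings rested on single libraries. Without IT_HLC replicate 2, 5 genes fell and 3 rose in the first pairing and 17 fell and 4 rose in the second. Without any 1 of the SW_LLW replicates 5 to 6 fell and none rose in the first pairing. No member rose there without IT_HLC replicate 1 or without IT_HLC replicate 3, and 1 rose without IT_LLC replicate 3. In the second pairing 7 fell without IT_LLW replicate 2, 6 without IT_LLW replicate 3 and 6 without SW_HLC replicate 1.

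**Figure D4:**
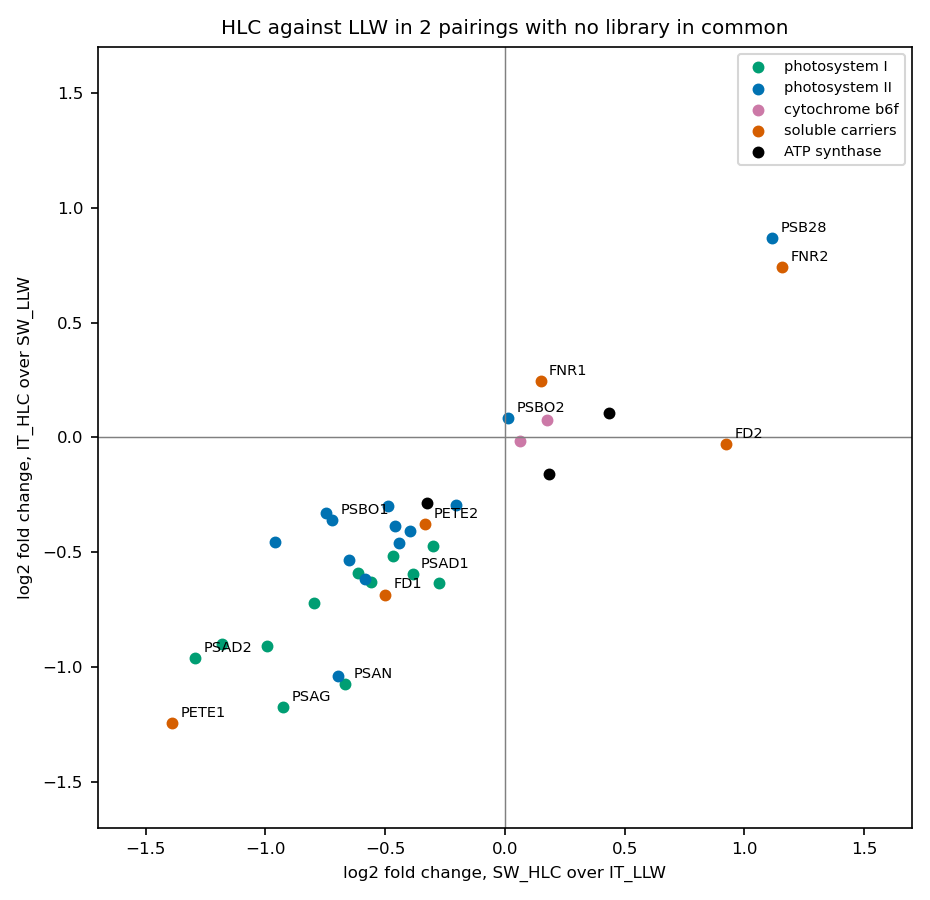
Log2 fold change of the 36 genes in SW_HLC over IT_LLW (horizontal) and in IT_HLC over SW_LLW (vertical), which have no library in common, with colours for the complexes. Photosystem I genes lie lower left, and PSB28 and FNR2 lie upper right.

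Cool leaves were compared with warm leaves over both light levels and labels. Of the 4 cool groups 3 were QQS-positive, against 1 of the 4 warm groups, so this mean is not balanced over that state. In cool leaves 23 of 36 genes fell, against 26.1% of all genes tested, and 1 rose, against 30.4%. All 12 photosystem I genes fell, from -0.84 for PSAD2 to -0.45 for PSAO, as did 8 of 13 photosystem II genes and PETE1, PETE2 and FD1. PETE1 changed by -0.95 ± 0.15, PSAE1 by -0.77 ± 0.14 and PSBQ2 by -0.85 ± 0.18 (adjusted p = 2.08e-05, 0.000118 and 0.000469). FNR2 was the gene that rose, by 0.51 ± 0.14 (adjusted p = 0.00494), and 2 genes rose without IT_HLC replicate 2 or without SW_HLW replicate 3. Cytochrome b6f and ATP synthase genes ranged from -0.20 to 0.05 and did not pass the test. Cool leaves were 14 °C by day in HLC but 16 °C in LLC.

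The steps of temperature within 1 label and 1 state, added after values were seen, set a lettered against a numbered library series. In SW_HLC against SW_HLW, both CSA1-positive, 16 of 36 genes fell and 2 rose, against 17.8% and 22.9% of all genes tested. PSAE1 stood at -1.08 ± 0.28 and PSAD2 at -1.47 ± 0.38 (adjusted p = 0.00463 and 0.0047). In SW_LLC against SW_LLW, both QQS-positive, PDE334 was the 1 gene that fell, against 19.1% of all genes tested, and none rose by edgeR, against 21.1%. There, 1 was higher at an unadjusted p below 0.05 and 1 by DESeq2. Whether these steps differ from each other was not tested. The count that fell in SW_HLC against SW_HLW was 6 without SW_HLC replicate 1, 7 without SW_HLC replicate 3, 10 without SW_HLW replicate 1 and 8 without SW_HLW replicate 3. The count that rose there was 5 without IT_HLC replicate 2 and 1 in 10 other fits without 1 library. In SW_LLC against SW_LLW, 4 rose without IT_HLC replicate 2, 2 without SW_LLC replicate 3 and 1 without IT_HLC replicate 1 or 3, and 0 fell without SW_LLC replicate 1 or 3.

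High light was compared with low light over both temperatures and labels. Of the 4 high-light groups 3 were CSA1-positive, against 1 of the 4 low-light groups, so this mean is not balanced over that state either. PSB28 rose by 0.68 ± 0.16 and FNR2 by 0.44 ± 0.14 (adjusted p = 0.00178 and 0.0147), and PSAE2, PSAG and PETE1 fell by 0.33, 0.41 and 0.36 on the log2 scale (adjusted p = 0.0432, 0.0436 and 0.0485). These were 2 of 36 higher, against 22.6% of all genes tested, and 3 lower, against 25.7%. This mean includes steps in SW that went up. There, 21 of 36 rose in SW_HLW against SW_LLW (median 0.70) and 9 in SW_HLC against SW_LLC (median 0.05), with none lower by edgeR. Of all genes tested, 42.8% and 52.5% were called in these steps in either direction. Light, the QQS-positive or CSA1-positive state and the library series change together in both, so their parts cannot be told apart. PSB28 had 25.9, 42.7 and 30.7 CPM in SW_HLC and 10.6, 7.04 and 19.4 CPM in SW_HLW, against 7.22, 11.1 and 6.55 CPM in SW_LLC and 11.2, 11.1 and 11.2 CPM in SW_LLW, so that within SW the HLW libraries overlapped the low-light range. In IT it had 25.8, 12.5 and 23.3 CPM in IT_HLC and 12.1, 20.9 and 25.7 CPM in IT_HLW, against 16.6, 20.1 and 15.3 CPM in IT_LLC and 16.4, 15.5 and 14.0 CPM in IT_LLW. The calls of PSAE2, PSAG and PETE1 were lost in 18, 16 and 22 of 29 alternatives. Leaving out 1 library moved the count of genes that rose to 9 without IT_HLC replicate 2 and to 4 without SW_LLC replicate 2 or IT_HLW replicate 1. The count of genes that fell moved in 18 of the 24 such fits, to between 0 and 5, and was 5 without IT_HLC replicate 1 or SW_LLC replicate 3.

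Within 1 label and 1 state, again across library series, 14 of 36 genes fell in IT_HLC against IT_LLC, both QQS-positive, against 19.5% of all genes tested, and none rose by edgeR or DESeq2, against 20.6%, with 1 at an unadjusted p below 0.05. PSAN stood at -1.16 ± 0.29 and PSAE2 at -1.04 ± 0.26 (adjusted p = 0.00376 and 0.00392). IT_HLC replicate 3 had CSA1 on as well, so the state was not wholly constant in this step. Without IT_HLC replicate 3 or IT_LLC replicate 3, 1 gene rose. In IT_HLW against IT_LLW, both CSA1-positive, PDE334, PSBP2, PSBR, PETE1 and PSBY fell, which makes 5, against 11.2% of all genes tested. None rose by edgeR, by DESeq2 or at an unadjusted p below 0.05, against 10.8%. The count of 5 was 9 without IT_HLC replicate 2 and 2 to 3 in 17 other fits without 1 library.

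Between labels, averaged over the 4 regimes, PSBP2 was the 1 gene of 36 that was higher in SW, by 0.99 ± 0.23 (adjusted p = 0.00434), against 12.2% of all genes tested higher and 12% lower. No member was lower by edgeR or DESeq2, and 1 was at an unadjusted p below 0.05. Without IT_HLC replicate 2, IT_HLW replicate 1 or SW_HLW replicate 3, 1 was lower by edgeR. PSBP2 had 2.22, 4.31 and 3.50 CPM in SW_HLW against 0.957, 0.267 and 0.617 CPM in IT_HLW, and 1.17, 2.23 and 1.45 CPM in SW_LLC against 0.0810, 0.418 and 0.743 CPM in IT_LLC. In LLW the order was the other way, with 1.14, 1.21 and 1.62 CPM in SW_LLW against 2.45, 1.90 and 2.75 CPM in IT_LLW. IT_LLC replicate 1 held 1 count, the lowest value the table contains.

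Taken regime by regime, a comparison added after values were seen, the labels stood apart in opposite directions in HLC and LLW. In these regimes SW_HLC and IT_LLW were CSA1-positive and IT_HLC and SW_LLW QQS-positive, so label and state cannot be told apart. In HLW both labels were CSA1-positive, and in LLC both were QQS-positive. In HLC 18 of 36 genes were higher in SW, led by PETE2 at 1.28 ± 0.32 and PSBQ2 at 1.36 ± 0.36 (adjusted p = 0.00702 and 0.0104), against 12.6% of all genes tested higher and 11.8% lower. In LLW 16 of 36 were lower in SW, led by PSBR at -0.65 ± 0.17 and PETE2 at -1.23 ± 0.32 (adjusted p = 0.00622 and 0.00776), against 12.5% of all genes lower and 13% higher. In HLW 3 were higher, PSBP2, PSBR and PSBO2, against 10.2% of all genes higher and 14.2% lower, and in LLC PSBP2 was higher and PSB28 lower, against 22.7% and 20%. No member was lower in SW in HLC or HLW, or higher in LLW, by edgeR, by DESeq2 or at an unadjusted p below 0.05. The HLC count was 6 without IT_HLC replicate 2, 4 without SW_HLC replicate 2 and 9 without SW_HLC replicate 3. The LLW count was 5 to 8 without SW_LLW replicate 1, 2 or 3 or IT_LLW replicate 2 or 3, and 26 without IT_HLC replicate 2. The LLC count lower in SW was 3 without IT_HLC replicate 2 or SW_LLC replicate 2, and 0 without IT_LLC replicate 2 or SW_LLC replicate 1 or 3. The HLW count was 10 without IT_HLC replicate 2 and 1 without IT_HLW replicate 1 or SW_HLW replicate 1 or 2, and 1 gene was lower there without SW_HLW replicate 3.

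Within paralog pairs, the share of each gene in the counts of its pair does not depend on library scaling. Regimes were compared for these shares after values were seen, so they are given without a test. In 5 of the 9 pairs the 6 HLC libraries did not overlap the 6 LLW libraries, which is given as a description with no share over other gene pairs. The coding sequences of the paralogs were 75.0% to 88.0% identical and no pair shared an identical stretch of 50 bases, the longest being 35. How the counting divided reads within a pair was not tested.

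PSAD1 took 65.8% to 77.9% of PSAD counts in HLC, against 52.5% to 62.9% in LLW. In SW_HLC the share was 66.8%, 70.4% and 66.8% and in IT_HLC 65.8%, 77.9% and 66.9%, and no library of any other regime exceeded 62.9%. Under the mean of labels PSAD2 had fallen by 1.13 on the log2 scale, and PSAD1, at -0.49 ± 0.21, had not passed the test. PSAD1 itself had 388, 394 and 453 CPM in SW_HLC and 254, 82.5 and 259.5 CPM in IT_HLC, against 311, 286 and 303 CPM in SW_LLW and 479.8, 583 and 550.4 CPM in IT_LLW.

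FD1 took 4.73% to 7.03% of FD counts in HLC, against 8.70% to 15.9% in LLW. In SW_HLC its share was 7.03%, 4.97% and 5.77% and in IT_HLC 6.39%, 4.73% and 6.46%, while the other 18 libraries lay between 8.70% and 18%. FD1 itself had 27.2, 34.0 and 28.5 CPM in SW_HLC and 18.1, 4.36 and 19.6 CPM in IT_HLC, against 21.0, 25.4 and 20.8 CPM in SW_LLW and 41.4, 39.5 and 45.8 CPM in IT_LLW. The FD1 share is low in HLC under both labels, where the level of FD2 differed between labels.

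In the plastocyanin pair PETE1 took 4.38% to 8.86% in HLC, against 9.04% to 13.7% in LLW, and in the ferredoxin-NADP reductase pair FNR1 took 57.8% to 68.0% in HLC, against 69.2% to 77.9% in LLW. PSBO1 took 78.1% to 82.0% in HLC, against 83.9% to 87.4% in LLW. The shares of PETE1, FNR1 and PSBO1 in HLC overlapped those in LLC or HLW. In the PSAE, PSAH, PSBP and PSBQ pairs the HLC and LLW libraries overlapped. PSBQ1 took 24.9%, 26.5% and 27.4% in SW_HLC and 42.0%, 40.4% and 32.5% in IT_HLC, against 29.0%, 30.6% and 26.5% in SW_LLW and 22.6%, 23.0% and 23.3% in IT_LLW, and these ranges were apart in IT and overlapped in SW. PSBP1 took at least 99.7% of its pair in every library.

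**Figure D5:**
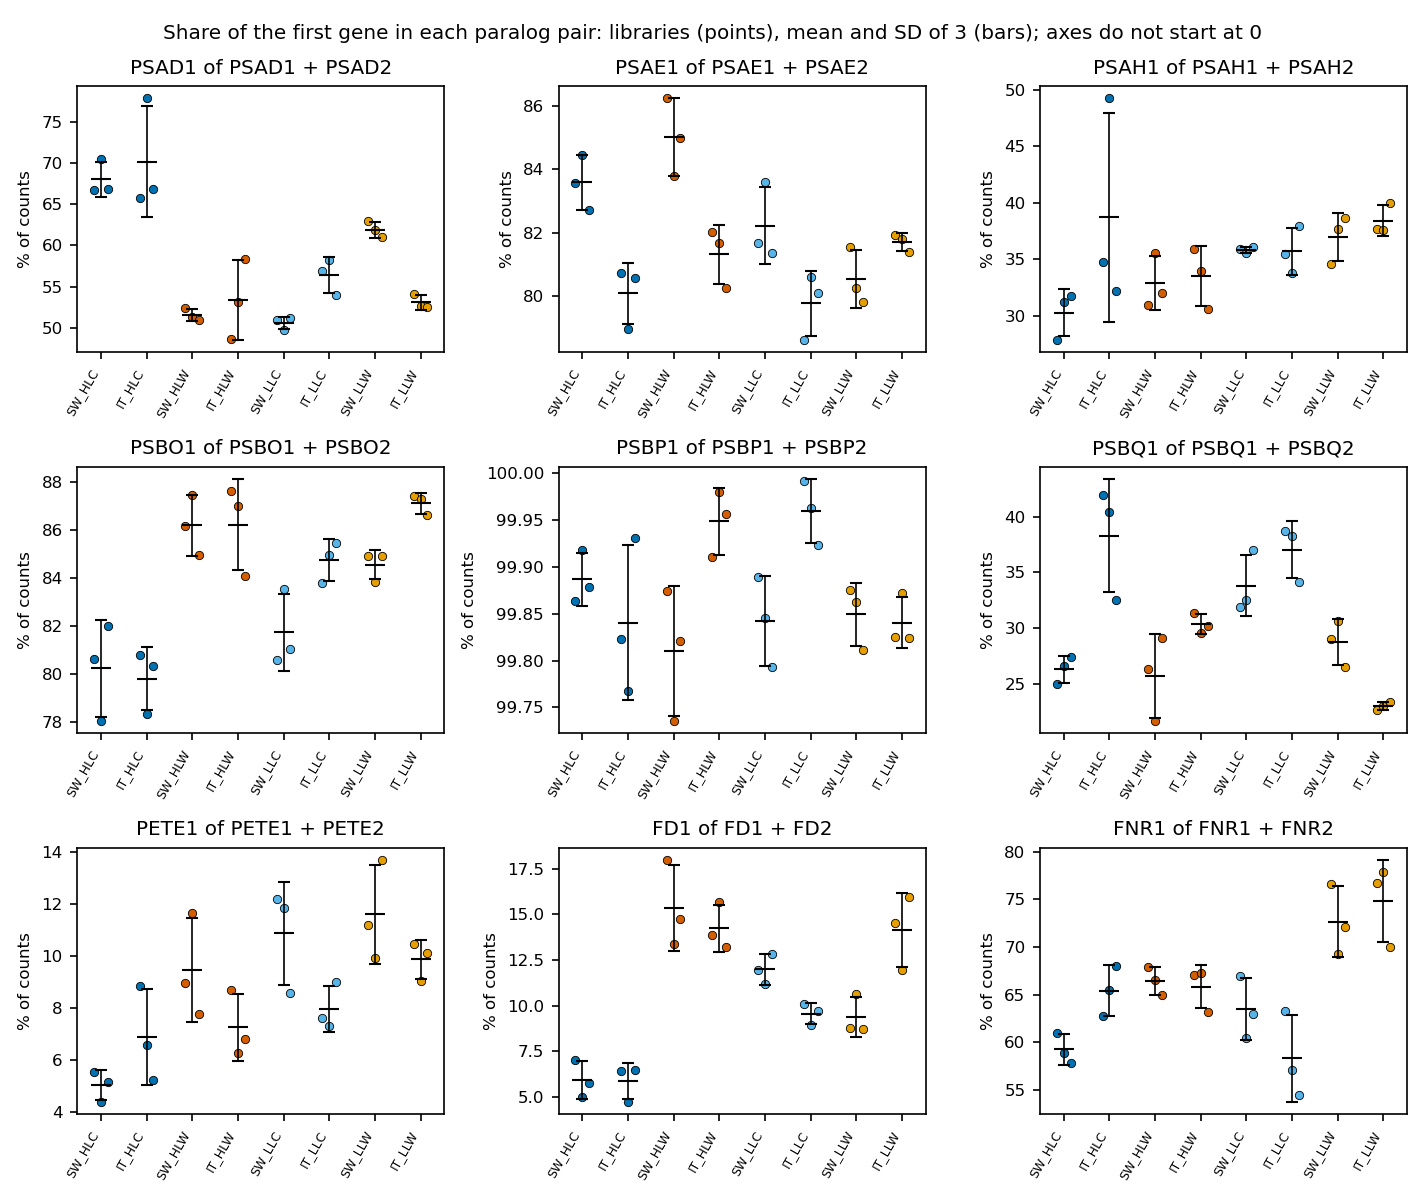
Share of the first gene in the counts of each paralog pair, as percent, in each library (points) with the mean and SD of 3 (bars); axes do not start at 0. The PSAD1 share is highest and the FD1 share lowest in the 6 HLC libraries, which lie apart from all 18 others.

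The 250 bases before the annotated gene start are shown for the members of these 2 pairs, since they set HLC apart from every other regime, and for PSB28, the photosystem gene that rose, and PSBQ2, which fell and holds 3 motif matches. Bases come from RefSeq's TAIR10.1 assembly, matched by locus identifier, and the count files hold no coordinates. Capitals mark CACGTG (the G-box) or GATAAG, searched on both strands, and sequences run 5′ to 3′ on the gene's strand, ending at the base before the start. PSAD1 (AT4G02770) lies at chr4:1230165-1230414 (minus strand), PSAD2 (AT1G03130) at chr1:754263-754512 (minus), FD1 (AT1G10960) at chr1:3663937-3664186 (plus), FD2 (AT1G60950) at chr1:22444057-22444306 (plus), PSB28 (AT4G28660) at chr4:14149599-14149848 (plus) and PSBQ2 (AT4G05180) at chr4:2673244-2673493 (minus). The windows of PSAD2 and FD1 run into a neighbouring gene.
PSAD1: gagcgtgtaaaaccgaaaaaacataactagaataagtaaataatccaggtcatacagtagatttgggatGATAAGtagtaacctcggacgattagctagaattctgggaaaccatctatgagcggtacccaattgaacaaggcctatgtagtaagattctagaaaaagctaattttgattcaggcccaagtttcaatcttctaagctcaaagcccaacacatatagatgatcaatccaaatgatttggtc
PSAD2: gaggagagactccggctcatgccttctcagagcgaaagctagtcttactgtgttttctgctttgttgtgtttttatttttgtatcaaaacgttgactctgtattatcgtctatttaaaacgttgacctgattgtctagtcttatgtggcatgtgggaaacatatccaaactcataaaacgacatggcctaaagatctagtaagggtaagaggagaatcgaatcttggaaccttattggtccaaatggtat
FD1: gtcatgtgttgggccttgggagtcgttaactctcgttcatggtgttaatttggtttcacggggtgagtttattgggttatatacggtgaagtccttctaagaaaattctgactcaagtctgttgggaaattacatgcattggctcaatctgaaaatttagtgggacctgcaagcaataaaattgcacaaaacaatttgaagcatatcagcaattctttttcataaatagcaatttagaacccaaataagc
FD2: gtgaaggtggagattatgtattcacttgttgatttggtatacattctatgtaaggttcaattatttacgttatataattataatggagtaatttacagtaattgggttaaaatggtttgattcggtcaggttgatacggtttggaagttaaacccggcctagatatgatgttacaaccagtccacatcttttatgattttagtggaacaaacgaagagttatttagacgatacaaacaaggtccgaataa
PSB28: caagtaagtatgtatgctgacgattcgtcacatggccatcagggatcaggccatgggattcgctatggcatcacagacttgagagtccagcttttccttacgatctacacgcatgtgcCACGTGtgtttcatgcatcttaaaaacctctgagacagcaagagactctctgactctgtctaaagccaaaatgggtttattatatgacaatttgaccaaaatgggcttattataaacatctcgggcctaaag
PSBQ2: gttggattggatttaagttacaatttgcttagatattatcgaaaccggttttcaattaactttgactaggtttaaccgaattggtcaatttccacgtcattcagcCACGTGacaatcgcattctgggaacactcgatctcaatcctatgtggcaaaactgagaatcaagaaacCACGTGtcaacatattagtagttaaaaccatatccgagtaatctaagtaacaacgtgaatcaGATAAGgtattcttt

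CACGTG occurred in 8 of the 36 windows, or 22.2%, against 6.49% of 27443 gene windows of the same length, and GATAAG in 10, or 27.8%, against 12.3%. Of the windows with CACGTG, those of PSAE2, PSAH2, PSBP2, PSBQ1, PSBTN and ATPD run into another annotated gene. Of those with GATAAG, the windows of PSAH2, PSBP2, PETE2, FNR1 and PDE334 do so. The share of all gene windows that run into another gene was not counted. CCGAC, the core of the cold-response element, occurred in 1, or 2.78%, against 12%, and AAATATCT, the evening element, in 1, or 2.78%, against 4.79%. In the windows shown, PSBQ2 holds CACGTG at 145 and 77 bases before the start and GATAAG at 15, PSB28 holds CACGTG at 132, and PSAD1 holds GATAAG at 181. PSAD2, FD1 and FD2 hold none of the 4. The motifs do not overlap one another in these windows.

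Assembly factors, regulators and relatives of the same complexes were counted in the mean of HLC against LLW. Of 27 assembly factors 9 rose and 3 fell, with a median of 0.13, where 28.5% of all genes tested were higher and 27.3% lower. In SW 15 of them rose and 0 fell by edgeR, against 24.8% and 25.5% of all genes tested. In IT 5 rose and 8 fell, against 28.6% and 26%. CCDA, which carries reducing power across the thylakoid for cytochrome assembly, rose by 1.19 ± 0.10, CGL160, an ATP synthase assembly factor, by 1.17 ± 0.12 and PYG7, a photosystem I assembly factor, by 0.63 ± 0.09 (adjusted p = 3.85e-09, 1.22e-07 and 1.08e-05). CYP38, HCF173 and LQY1, which act on photosystem II, fell by 0.60, 0.33 and 0.43 on the log2 scale (adjusted p = 0.00624, 0.0253 and 0.0483). Of 12 regulators 5 rose, among them GUN1, SIG2 and SIG4 at 0.64 ± 0.10, 0.56 ± 0.12 and 0.88 ± 0.19, and 2 fell, the chloroplast regulators GNC and GLK2, at -0.84 ± 0.16 and -0.65 ± 0.19 (adjusted p = 2.92e-05, 0.000481, 0.000616, 0.000193 and 0.00542).

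Of 10 relatives outside the 36, RFNR2, a root-type ferredoxin-NADP reductase, and FDC2, a ferredoxin-like protein, rose by 0.96 ± 0.14 and 0.64 ± 0.13, and ATPC2 and CYTC6A fell by 1.99 and 1.76 on the log2 scale (adjusted p = 9.1e-06, 0.000354, 2.19e-05 and 0.000189). Of 17 plastid-encoded subunits of the same complexes 2 were higher and 4 lower, against 28.5% and 27.3% of all genes tested, with a median of -0.01. In SW 6 were higher and 1 lower, against 24.8% and 25.5% of all genes tested, with a median of 0.32. In IT 0 were higher by edgeR and 7 lower, against 28.6% and 26%, with a median of -0.40. The medians of these subunits thus had opposite signs under the labels.

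Over the 8 group means, the mean profile of the 36 was most like those of ATH13, at a Pearson r of 0.984, AT1G73440 at 0.975, OASB at 0.971, LHCB2.3 at 0.968 and AT3G02690 at 0.965, of 17673 other genes. Within the 36, PSBTN (0.987) and PSAD1 (0.985) lay nearest the mean profile, while PSB28 (-0.00) and FNR2 (0.08) did not follow it. Points share library scaling and groups, and r describes these libraries. Among markers of other leaf tissues, the 5 xylem markers summed to 2.64 to 3.77 CPM in SW_HLC and 1.22 to 2.38 CPM in IT_HLC. They summed to 4.56 to 11.3 CPM in SW_LLW and 10 to 11.1 CPM in IT_LLW. In the mean of labels all 5 were lower in HLC than in LLW, as were 5 in IT and 3 in SW. The 3 phloem markers summed to 96.6 to 132 CPM in SW_HLC and 39.4 to 53.3 CPM in IT_HLC, against 75.5 to 83.0 CPM in SW_LLW and 96.1 to 154 CPM in IT_LLW. In the mean of labels 2 of 3 were lower, while in SW 1 was higher and 1 lower, and in IT all 3 were lower. The epidermis markers summed to 354 to 455 CPM in SW_HLC and 197 to 286 CPM in IT_HLC, against 201 to 285 CPM in SW_LLW and 231 to 382 CPM in IT_LLW. Of the 4 tested, 3 were higher in SW, and in IT 1 was higher and 2 lower. The guard cell markers summed to 12.5 to 14.6 CPM in SW_HLC and 9.95 to 17.8 CPM in IT_HLC, against 10.7 to 13.2 CPM in SW_LLW and 13.8 to 14.8 CPM in IT_LLW. The mesophyll markers RBCS1A and CA1 summed to 4263 to 6333 CPM in SW_HLC and 2057 to 5748 CPM in IT_HLC, against 3914 to 4196 CPM in SW_LLW and 4917 to 5773 CPM in IT_LLW, and neither passed the test. The part of tissue make-up in the members' levels was not tested, and in bulk leaf RNA fewer cells of a type and less RNA per cell cannot be told apart.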

How the data were processed

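RNA-seq counts per gene were deposited by the authors as 1 table of 24 libraries and 33610 identifiers, whole-number counts that were not normalised. The submitters' processing notes name HISAT, StringTie, DESeq2 and the TAIR10 genome, without versions or roles, and how the counts themselves were made is not stated there. The lowest value in the table is 1, so a count of 1 can stand for no reads.

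Columns were matched to samples by their names in the labels. Counts were tested with edgeR 4.0.16 (R 4.3.3, limma 3.58.1): TMM scaling, filterByExpr with a minimum count of 10 and a minimum total of 15, 1 mean for each of 8 groups over all 24 libraries, robust quasi-likelihood F tests, and Benjamini-Hochberg adjustment over the 17709 genes tested at a threshold of 0.05. The SE is the log2 fold change divided by the square root of F. CPM is the count divided by the scaled library size. Depth sets the precision of rare genes, of which PSBP2 is the rarest. The fitting code was tested on simulated data with known changes. Those counts were drawn independently, at a spread below the members' median biological coefficient of variation of 0.250. The simulation therefore checks the code and not the calls on the 36 genes, which move together. DESeq2 1.42.0 served as an alternative. Figures and shares were made with Python 3.11.15, pandas 2.3.3, numpy 2.4.6 and matplotlib 3.10.9, and promoters were read with Biopython 1.88 from TAIR10.1 by locus identifier.

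The genes and lists were chosen with earlier results of these data known. By the plan, full statistics could be given for up to 6 members per direction and comparison by smallest adjusted p, and for both genes of each paralog pair. Not all of these were printed: PSAH2, PSBO2, PSBP1 and PSBQ1 are given only within ranges of changes. Other members named with values, such as those of small complexes, were chosen after their values were seen. In each other list up to 3 genes per direction were named. The comparisons of labels within each regime and of regimes within 1 label were also added after values were seen. Replicate numbers in the labels did not pair the samples: over 84 pairs of libraries with the same number, deviations from the group means correlated at -0.29 to 0.19, with a median of -0.00.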

Additional observations from a re-analysis of the deposited data

Results flagged for a closer look

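The change in SW minus the change in IT, for HLC against LLW, passed edgeR's quasi-likelihood test of the difference itself in 31 of the 36 genes, and all 31 were more positive in SW. The difference on the log2 scale was 2.51 for PETE2, 1.60 for PSBW, 2.35 for PSAK, 1.12 for PSBR, 2.37 for PSBQ2 and 1.96 for PSAF, the 6 with the smallest adjusted p (0.000244 to 0.00135). Over libraries left out in turn, the number of genes passing ran from 26, without SW_HLC replicate 2, to 34, without IT_HLC replicate 1. QQS, CSA1 and the other genes that were on in 4 of 8 groups changed state between HLC and LLW within both labels and in opposite directions, and their part in this difference was not tested.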

How the results depend on the processing

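Of 137 member values that passed the test in the comparisons planned, 109 passed under all 29 alternatives and 28 were lost in at least 1, with none reversed. The losses were 7 in IT_HLC against SW_LLW, 6 in SW_HLC against IT_LLW, 5 in the difference between labels, 3 in light, 2 each in IT, SW and temperature, and 1 in the mean of HLC against LLW. Genes lower in high light numbered 3, and 0 without the filter on low counts and 0 with the replicate number as a block. Genes lower in IT_HLW against IT_LLW numbered 5, and 3 with the block. The block moved no other count by over 1.5 times. Genes higher in SW_LLC against SW_LLW numbered 0, and 1 with DESeq2, 1 with scaling from nuclear genes and 1 without the filter. Genes higher in SW_HLC against SW_HLW numbered 2, and 1 without the filter and 1 with 1 subtracted from every count. The fit without a filter left out genes at the lowest value in every library and used a moving-average trend. The causes were not tested.

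Leaving out each replicate gave these ranges. For HLC against LLW, 2 to 5 higher and 15 to 23 lower in the mean of labels, 0 to 1 and 24 to 27 in IT, 4 to 12 and 0 to 1 in SW, and 26 to 34 higher for the difference. For IT_HLC against SW_LLW, 0 to 3 higher and 5 to 12 lower, and for SW_HLC against IT_LLW 2 to 4 and 6 to 17. For high light, 2 to 9 higher and 0 to 5 lower, for cool 1 to 2 and 21 to 27, and for SW against IT 1 to 1 and 0 to 1. Within regimes, SW against IT gave 4 to 26 higher in HLC, 1 to 10 higher and 0 to 1 lower in HLW, 0 to 3 lower in LLC and 5 to 26 lower in LLW. Within labels, SW_HLC against SW_HLW gave 1 to 5 higher and 6 to 21 lower, SW_LLC against SW_LLW 0 to 4 and 0 to 1, IT_HLC against IT_LLC 0 to 1 and 10 to 20, and IT_HLW against IT_LLW 2 to 9 lower. Depth limits PSBP2, whose counts ran from 1 to 57.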
